A study of Mus musculus with 38 samples.

Results

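The promoters of 10 genes that carry glucose into the muscle fibre and break it down to lactate were followed in mouse soleus, a postural hindlimb muscle rich in slow fibres. They were the glucose transporter *Slc2a4*, the kinases and regulators *Hk2*, *Pfkm* and *Pfkfb3*, the enzymes *Aldoa*, *Pgam2*, *Eno3* and *Pkm*, and the lactate dehydrogenases *Ldha* and *Ldhb*. A promoter, that is a cluster of tag starts, was given to a gene when its highest peak and an annotated 5′ end of the gene on the same strand were no more than 500 bp apart. All 10 genes had at least 1 promoter, and together they held 14 of the 10819 promoters measured. *Aldoa* had 4, *Eno3* had 2 and each other gene had 1.

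The uptake of glucose that insulin and contraction stimulate runs through SLC2A4 (GLUT4), which they bring to the fibre surface, and HK2 phosphorylates it so that it stays inside. PFKM then commits the sugar to glycolysis, and PFKFB3 sets the level of fructose 2,6-bisphosphate, the strongest activator of that step. ALDOA, PGAM2, ENO3 and PKM carry the later reactions, LDHA favours the making of lactate, while LDHB, abundant in slow fibres and heart, favours its use. Fast fibres hold more of most glycolytic enzymes than slow fibres do, and so the fibre make-up of each dissected muscle matters for these genes.

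The libraries were made by nAnT-iCAGE, which counts the capped 5′ ends of RNAs, so that 1 tag stands for 1 RNA whatever its length. The animals were male C57BL/6J mice, for which the labels name no transgene or drug, and each of the 38 libraries came from 1 mouse. Run 1 held 28 libraries, namely 4 Pre (fed, day 1), 8 Mid (fasted, day 2, during the period of daily torpor, an active fall of metabolism, though metabolic rates varied widely among these mice), 4 Post (food returned, day 3), 4 HiT (day 2, high ambient temperature), 4 Fed (day 2, normally fed) and 4 Dep (day 2, torpor deprived by touching). The sample labels and the series text disagree with the methods of the study on food, since a sample label calls Fed starvation and the series text gives HiT food, whereas the methods describe HiT as fasted in the warm and Fed as kept with food in the cool. The methods were followed here. They remove food on day 2 as the standard design and name only the Fed as an exception. The Dep are therefore taken as fasted, like the Mid. Run 2 held 2 Pre, 5 Mid and 3 Post libraries and was normalised and tested on its own. RNA came from 1 soleus or from both of a mouse, and the mice were not assigned at random. Bulk RNA cannot tell fewer fibres of a type from less RNA per fibre.

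Tags in promoters numbered 18257657 to 39176649 per library in run 1 and 9359994 to 20914855 in run 2. The smallest number of tags of any of the 14 promoters in any library was 61, for *Pfkfb3*, so that depth limited none of them to a few tags. Levels are given in CPM, tags per library of 1000000 tags after TMM normalization, and differences as log2 fold changes ± SE with the FDR of edgeR's quasi-likelihood F test over all promoters. Levels of fast fibre genes varied from muscle to muscle, but not all in the same direction. Of the 25 promoters of 13 listed fast fibre genes, 5 rose and 3 fell from the HiT to Mid (19.2% and 21.8% of all promoters). From the Pre to HiT 1 rose and 7 fell (18.5% and 14.9% of all). *Myh4*, the myosin of the fastest fibres, ranged from 2.62 to 1674 CPM in run 1 and stood at 2.62 to 6.51 in the 4 HiT libraries, but the lowest Pre (4.66), Mid (5.72), Post (8.11) and Dep (10.96) libraries were also low. A fast fibre score, the mean log2 level of 13 fast fibre genes, was 0.64 lower in the HiT than in the Mid (exact permutation test, two-sided, p = 0.0303, adjusted p = 0.212 over 7 comparisons), and *Myh4* alone differed by 5.02 on the log2 scale (exact permutation test, adjusted p = 0.0424). The summed level of the 5 macrophage genes, of 7 listed, that had a promoter was 138 to 310 CPM in the HiT against 40.4 to 93.6 in the other libraries of run 1, and the summed level of 9 slow fibre genes was 11692 to 14828 in the HiT against 12874 to 19114. The defining adipocyte genes *Adipoq* (1.46 to 41.6) and *Plin1* (1.05 to 43.0) were detected in each library of run 1. Mean *Plin1* was 22.9 in the Pre, 21.5 in the Post and 24.5 in the Fed. It was 7.40 in the Mid, 5.54 in the HiT and 8.91 in the Dep. Group means of *Adipoq* ran from 9.43 (HiT) to 17.2 (Pre), and those of the summed 8 adipocyte genes from 2752 (Post) to 3257 (Dep). The summed level of 4 red blood cell genes was 3601 to 5134 in the Pre and 2990 to 4238 in the Mid, against 2019 to 2622 in the Post and 1887 to 3285 in the HiT, so that the Pre overlapped neither the Post nor the HiT, and the Mid did not overlap the Post. In the library Fed 2 it was 13752. Fits with the fast fibre score are given below, and those with the *Myh4* level or an adipocyte score in the closing section. The part of the macrophage, red blood cell and slow fibre differences in the results was not tested.

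The promoters lay as follows in mm10. *Slc2a4* peaked at chr11:69948163 on the minus strand, *Hk2* at chr6:82774439 (minus), *Pfkm* at chr15:98108569 (plus) and *Pfkfb3* at chr2:11502041 (minus), each inside an annotated exon. *Aldoa* had 4 promoters, named P1 to P4 from the 5′ end on the minus strand. P1 (chr7:126800048) and P2 (chr7:126799143) each lay 2 bases upstream of an annotated 5′ end, P1 outside any annotated exon of the gene and P2 within 2 of them. P3 (chr7:126797779) lay 28 bases upstream of a further annotated end, and P4 (chr7:126797435) 316 bases downstream of the same end, where it fell inside 12 annotated exons. *Pgam2* peaked at chr11:5803721 (minus). *Eno3* P1 (chr11:70657202, plus) fell on the annotated start, and P2 (chr11:70657822) lay 620 bases further on and inside 4 annotated exons. *Pkm* peaked at chr9:59656574 (plus), *Ldha* at chr7:46845841 (plus) and *Ldhb* at chr6:142507923 (minus). P1 and P2 held 55.6% and 43.3% of the *Aldoa* level in run 1, while P3 and P4 held 0.242% and 0.844%.

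RefSeq promoter windows (GRCm38.p6) held the peak of 8 of the 14 promoters. The 250 bases before the RefSeq start are printed for 4 of them, *Hk2* and *Ldhb* because both rose from the HiT to Mid, *Ldha* as the counterpart of *Ldhb*, and *Eno3* because its P1 changed on refeeding. Capitals mark the motifs searched for on both strands, and the last base printed is the one just before the start.
*Hk2*, chr6:82774455-82774704, minus strand: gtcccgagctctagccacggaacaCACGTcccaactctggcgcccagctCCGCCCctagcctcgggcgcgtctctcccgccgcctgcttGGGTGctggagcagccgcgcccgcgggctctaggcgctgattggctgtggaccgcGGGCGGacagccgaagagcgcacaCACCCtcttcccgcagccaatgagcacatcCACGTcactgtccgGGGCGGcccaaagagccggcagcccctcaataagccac
*Ldha*, chr7:46845554-46845803, plus strand: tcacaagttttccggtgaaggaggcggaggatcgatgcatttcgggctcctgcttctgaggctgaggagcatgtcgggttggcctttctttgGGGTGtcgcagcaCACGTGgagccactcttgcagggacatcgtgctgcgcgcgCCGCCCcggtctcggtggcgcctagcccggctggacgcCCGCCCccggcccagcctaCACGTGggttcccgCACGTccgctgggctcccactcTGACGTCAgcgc
*Ldhb*, chr6:142507958-142508207, minus strand: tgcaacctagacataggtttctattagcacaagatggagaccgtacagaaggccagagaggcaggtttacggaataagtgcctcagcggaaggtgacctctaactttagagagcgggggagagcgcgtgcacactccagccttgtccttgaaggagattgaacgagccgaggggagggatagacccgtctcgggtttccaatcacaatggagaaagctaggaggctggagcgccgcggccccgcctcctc
*Eno3* P1, chr11:70656926-70657175, plus strand: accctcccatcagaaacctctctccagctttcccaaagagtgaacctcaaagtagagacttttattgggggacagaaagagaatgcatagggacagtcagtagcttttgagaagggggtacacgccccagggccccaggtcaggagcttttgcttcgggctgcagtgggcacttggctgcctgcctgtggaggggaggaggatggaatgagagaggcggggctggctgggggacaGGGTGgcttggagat

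The E-box CACGTG, the site of MYC, USF and related factors, stood at 2 places before *Ldha* and at 1 place before *Pfkfb3*, and 6.02% of the 32851 windows of this length held it. The cyclic AMP response element TGACGTCA began 12 bases before the start of *Ldha* and was in 1.55% of windows. ACGTG, the core bound by hypoxia-inducible factors, which also lies inside CACGTG, was found in the windows of *Hk2*, *Pfkfb3*, *Aldoa* P2 and *Ldha*, against 16.6% of all windows. The GC box GGGCGG was in 5 of the 8 windows (32.7% of all) and the KLF core CACCC in 6 of the 8 (52% of all). None of the 8 held the FOXO motif GTAAACA (3.17% of all), the ERR motif AAGGTCA (4.08%), the TATA box TATAAA (12.4%) or a MEF2 motif (2.92%). The window of *Ldhb* held none of the motifs searched. GC content of the 8 windows ran from 56.4% (*Ldhb*) to 69.6% (*Hk2*), against a median of 52.4% over all windows. They held 3 (*Eno3* P1) to 25 (*Hk2* and *Ldha*) CpGs, against a median of 6. The shares of all windows were not matched for GC or CpG.

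**Figure D1:**
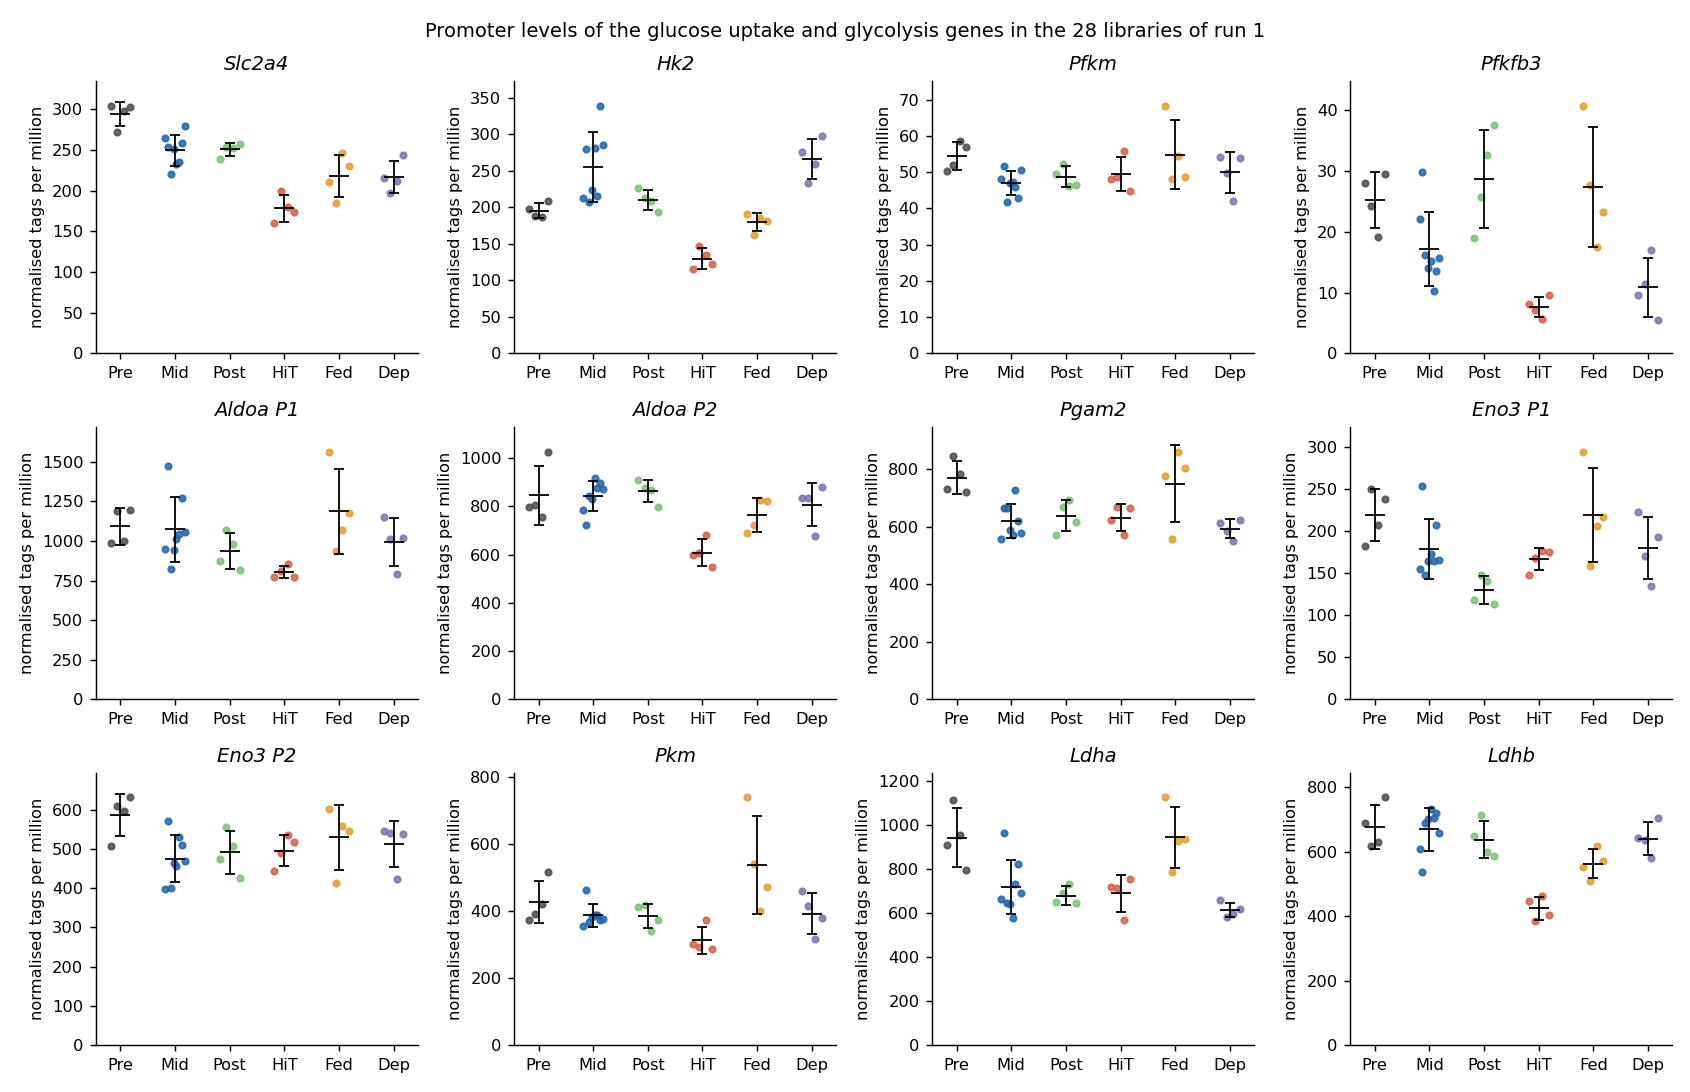
Level of 12 of the 14 promoters in each library of run 1, in CPM on an axis from 0. Each point is 1 mouse, the long bar is the group mean and the whiskers are 1 SD. The 4 HiT points are the 4 lowest for *Hk2* and *Ldhb*, and the 4 Dep points and 4 of the 8 Mid points lie above the other groups for *Hk2*.

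The *Slc2a4* promoter, for the insulin-responsive transporter, was highest in the Pre, at 304, 272, 298 and 303 CPM, and lowest in the HiT, at 160.1, 199, 180.2 and 173. The Mid ranged from 221 to 279 (median 253), the Post stood at 239, 254, 253 and 257, the Fed at 211, 185, 246 and 231, and the Dep at 216, 197, 211 and 243. The HiT lay below all Pre, Mid and Post libraries, while the Mid overlapped each group but the HiT. It fell by 15.2% between the Pre and Mid (-0.24 ± 0.07, FDR = 0.0153) and by 39.5% between the Pre and HiT (-0.72 ± 0.09, FDR = 5.66e-07). It rose 1.40-fold from the HiT to Mid (0.49 ± 0.08, FDR = 1.32e-05) and 1.14-fold from the Fed to Mid (0.19 ± 0.07, FDR = 0.0444). In the Post the difference from the Mid was 0.01 ± 0.07 (FDR = 0.953) and that from the Pre -0.23 ± 0.09 (FDR = 0.203), with no Post library reaching the Pre. The call from the Fed to Mid was lost without Mid 1, Mid 4, Mid 7, Mid 8, Fed 1 or Fed 2 (0.12 to 0.26 over the fits that left out 1 library each).

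*Hk2*, the hexokinase of insulin-sensitive muscle, was higher in the Mid than in the Pre, the HiT and the Fed. The Pre had 198, 188, 186 and 208 CPM, the HiT 115, 147, 135 and 122, and the Fed 191, 162, 186 and 181. In the Mid it ranged from 207 to 339 (median 252), and in the Dep it was 276, 233, 259 and 298. The Mid lay above all HiT and Fed libraries and overlapped the Pre only by its lowest library. The rise was 1.31-fold from the Pre (0.39 ± 0.11, FDR = 0.00801), 1.97-fold from the HiT (0.98 ± 0.11, FDR = 1.38e-07) and 1.42-fold from the Fed (0.51 ± 0.11, FDR = 0.000827). The rise from the Pre missed the threshold when only the compared groups were fitted (0.37, FDR = 0.0524) and without TMM (0.31, FDR = 0.201), where that from the Fed also missed it (0.38, FDR = 0.0853). With a term for the library number in the fit the rise from the Pre was not called either. With refeeding the Post stood at 227, 213, 208 and 194, a fall by 17.7% (-0.28 ± 0.11, FDR = 0.0453) that lost its call without any of the 4 Post libraries or without Mid 2, Mid 5, Mid 7 or Mid 8 (-0.32 to -0.21). It was also lost with the fast fibre score in the fit (-0.22, FDR = 0.119). It fell by 33.6% between the Pre and HiT (FDR = 0.000605), and the Dep differed from the Mid by 0.06 ± 0.11 (FDR = 0.795).

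*Pfkm*, the muscle subunit of the enzyme, kept to a narrow range of 41.9 to 68.3 CPM over the 28 libraries. Its only call was a fall by 14.4% from the Fed to Mid (-0.22 ± 0.09, FDR = 0.0433), which was lost without Fed 1, Fed 3 or any of the 8 Mid libraries (-0.28 to -0.10). The library Fed 1 was the highest of all. *Pfkfb3*, whose product activates phosphofructokinase through fructose 2,6-bisphosphate, moved most of the 14 promoters in fold terms. It stood at 28.1, 24.3, 19.1 and 29.4 in the Pre, at 10.2 to 29.8 (median 15.5) in the Mid, and at 19.04, 25.7, 32.6 and 37.6 in the Post. The Fed had 40.7, 27.7, 17.6 and 23.2, the Dep 9.58, 11.4, 16.9 and 5.41, and the HiT 8.05, 7.07, 5.72 and 9.66. The HiT lay below every Pre, Mid, Post and Fed library, and the Dep shared its lower range. The fall from the Pre to HiT was 69.9% (-1.73 ± 0.32, FDR = 0.000142), and the level was 2.25-fold higher in the Mid than in the HiT (1.17 ± 0.29, FDR = 0.00191). It rose 1.68-fold from the Mid to Post (0.75 ± 0.26, FDR = 0.0253), and the fall from the Pre to Mid did not pass the threshold (-0.56 ± 0.26, FDR = 0.103). The fall from the Fed to Mid (-0.67 ± 0.26, FDR = 0.0451) was lost without Fed 1, Fed 2, Fed 4 or any of Mid 3 to Mid 8 (-0.83 to -0.42), and the rise from the Mid to Post without Post 3 or Post 4 (0.59 to 0.92).

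*Aldoa* P1 and P2, the strong promoters of the muscle aldolase, both fell from the Pre to HiT and both rose from the HiT to Mid. P1 stood at 773, 811, 853 and 775 in the HiT against 988, 1189, 999 and 1199 in the Pre and 821 to 1476 (median 1030.0) in the Mid. P2 stood at 597, 607, 681 and 547 in the HiT against 798, 806, 757 and 1028 in the Pre and 723 to 916 (median 857) in the Mid. Every HiT value lay below every Pre value for both promoters, and for P2 below every Mid value too. Between the Pre and HiT, P1 fell by 26.6% (-0.45 ± 0.16, FDR = 0.0293) and P2 by 28.2% (-0.48 ± 0.10, FDR = 0.000529). The Mid was 1.34-fold above the HiT for P1 (0.42 ± 0.14, FDR = 0.0167) and 1.39-fold for P2 (0.47 ± 0.09, FDR = 0.000124). Neither passed the threshold from the Pre to Mid (P1 -0.03 ± 0.13, P2 -0.01 ± 0.09), from the Mid to Post or from the Fed to Mid. The weak P3 ranged from 2.89 to 6.42 over run 1 and passed only from the Pre to HiT (-0.51 ± 0.19, FDR = 0.0448), and P4, which lies inside shared exons, ranged from 9.37 to 23.2 and passed nowhere. The falls from the Pre to HiT were lost for P1 without Pre 2, Pre 4, HiT 1, HiT 2 or HiT 4 (-0.49 to -0.40), and for P3 without Pre 1, Pre 3, HiT 1 or HiT 2 (-0.61 to -0.37).

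*Pgam2*, the muscle mutase, was at 730.0, 847, 785 and 721 in the Pre and between 558 and 728 (median 604) in the Mid, with Mid 6 alone above the lowest Pre library. It fell by 19.4% from the Pre to Mid (-0.31 ± 0.09, FDR = 0.0109), by 17.2% from the Fed to Mid (-0.27 ± 0.09, FDR = 0.0219) and in the HiT it stood at 0.82 of the Pre level (-0.29 ± 0.11, FDR = 0.0393). These calls were lost without Pre 2 (Pre to Mid, -0.34 to -0.26), without Mid 8, Fed 1, Fed 3 or Fed 4 (Fed to Mid, -0.39 to -0.20), and without Pre 2, Pre 3, HiT 1 or HiT 3 (Pre to HiT, -0.33 to -0.24). The HiT and the Mid had nearly the same mean, 632 and 621 (difference -0.02 ± 0.09 on the log2 scale, FDR = 0.853). *Eno3* P2, the stronger promoter of the muscle enolase, fell by 18.99% from the Pre to Mid (508, 609.6, 598 and 632 against 398 to 571, median 468, -0.30 ± 0.10, FDR = 0.0281), a call lost without Pre 2, Pre 3, Pre 4, Mid 1, Mid 3 or Mid 8 (-0.37 to -0.27). *Eno3* P1 was lowest in the Post, at 118, 148, 140.2 and 113, against 181, 249.6, 206 and 238 in the Pre and 147 to 253 (median 164) in the Mid, whose lowest library only just lay below the highest of the Post. It fell by 27.2% from the Mid to Post (-0.46 ± 0.15, FDR = 0.0216) and by 40.7% from the Pre to Post (-0.75 ± 0.17, FDR = 0.0227), the only member call between those 2 groups. The call from the Mid to Post was lost without Post 1 or Post 4 (-0.53 to -0.37), and that from the Pre to Post without Pre 2, Pre 4, Post 1 or Post 4 (-0.83 to -0.69). *Pkm*, the pyruvate kinase of muscle, was highest in the Fed, at 740.5, 540.1, 401 and 471, and lowest in the HiT, at 303, 292, 373 and 286. It fell by 27.99% from the Fed to Mid (-0.47 ± 0.12, FDR = 0.00378) and by 26.5% from the Pre to HiT (-0.44 ± 0.14, FDR = 0.0185), while the difference of the Mid from the HiT missed the threshold (0.31 ± 0.13, FDR = 0.0539). These 2 falls were lost without Fed 1 (-0.59 to -0.28) and without Pre 4 or HiT 2 (-0.55 to -0.34).

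*Ldha* was high in the Pre and the Fed, at 906, 1112, 955 and 792 in the Pre and 1124, 783, 925 and 936 in the Fed. It was lower in the Mid (577 to 961, median 677), the HiT (719, 711, 567 and 755), the Dep (657, 581, 593 and 619) and the Post (648, 688, 732 and 644). All HiT, Dep and Post values lay below all Pre and Fed values, and 2 of the 8 Mid libraries reached into the range of the Pre and Fed. It fell by 24.0% from the Pre to Mid (-0.40 ± 0.11, FDR = 0.00895), by 24.0% from the Fed to Mid (-0.40 ± 0.11, FDR = 0.00773) and by 26.9% from the Pre to HiT (-0.45 ± 0.13, FDR = 0.00944). The fall from the Pre to Mid was lost without Pre 2 (-0.47 to -0.31) and that from the Fed to Mid without Fed 1 (-0.48 to -0.30). Between the Pre and Post the difference was -0.47 ± 0.13 (FDR = 0.0648), without overlap of the groups. *Ldhb* moved otherwise. It stood at 447, 385, 461 and 404 in the HiT, below every other library of run 1, against 690.4, 618, 631 and 769 in the Pre, 539 to 734 (median 696) in the Mid and 553, 508, 617 and 571 in the Fed. It fell by 37.3% from the Pre to HiT (-0.67 ± 0.10, FDR = 7.32e-06), was 1.58-fold higher in the Mid than in the HiT (0.66 ± 0.09, FDR = 1.08e-06) and 1.19-fold higher than in the Fed (0.25 ± 0.08, FDR = 0.0223), and did not pass from the Pre to Mid (-0.02 ± 0.08, FDR = 0.904). The rise over the Fed was lost without Fed 1 or Fed 2 (0.21 to 0.32).

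**Figure D2:**
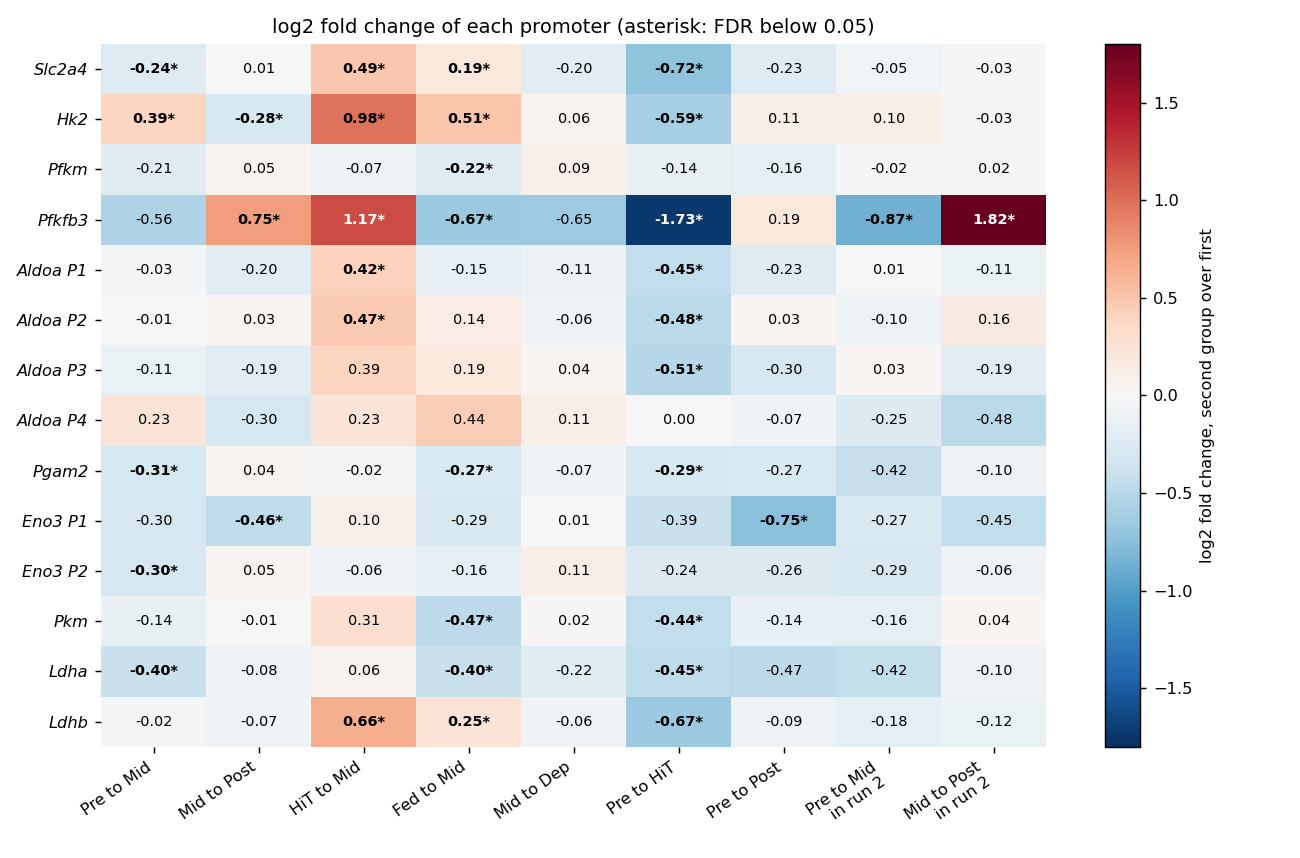
log2 fold change of the 14 promoters (rows) in 7 comparisons of run 1 and 2 of run 2 (columns), with red for higher and blue for lower in the second group. An asterisk marks an FDR below 0.05. The column from the Pre to HiT holds 10 asterisks, all blue, and that from the Mid to Dep holds none.

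Counted over the 14 promoters, 1 rose and 4 fell from the Pre to Mid, and over all promoters 15.4% rose and 14.8% fell. For the Mid to Post the counts were 1 and 2 (17.5% and 17.5% of all), for the HiT to Mid 6 and 0 (19.2% and 21.8%), and for the Fed to Mid 3 and 5 (16.6% and 18.6%). The Pre to HiT had 0 rising and 10 falling members, with 18.5% and 14.9% of all promoters. The Pre to Post had 0 and 1 (1.05% and 0.798%). None passed between the Mid and Dep by edgeR's quasi-likelihood test or by DESeq2, 2 had an unadjusted p under 0.05, and 1.16% of all promoters rose and 0.872% fell. The median log2 fold change of the members was -0.45 from the Pre to HiT and 0.35 from the HiT to Mid, against 0.04 and 0.02 over all promoters tested, and it was -0.18 from the Pre to Mid, against 0.01. These comparisons share their Pre, Mid and HiT libraries. With the fast fibre score in the fit, the member medians were -0.27 from the Pre to HiT and 0.12 from the HiT to Mid. From the Pre to Mid the median was -0.18. With the *Myh4* level in its place, the first 2 were -0.32 and 0.13. From the HiT to Mid 4 members then rose and 0 fell, against 1351 and 1836 of all 10776 promoters. Without the library Fed 1, the count from the Fed to Mid was 1 (*Hk2*) in place of 8, and without Pre 2 that from the Pre to Mid was 2 in place of 5. Calls over all promoters are not given for these fits, so whether the loss was particular to the members cannot be told. Without TMM scaling 14 member calls were lost and none changed sign, among them the differences of *Hk2* (0.31, FDR = 0.201), *Slc2a4* (-0.32, FDR = 0.141), *Pgam2* (-0.40, FDR = 0.0691) and *Eno3* P2 (-0.39, FDR = 0.0604) between the Pre and Mid.

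Of 38 other genes of glucose uptake, glycolysis and glycogen handling, 30 had a promoter, with 32 promoters in all. *Slc2a3*, *Slc2a12*, *Pfkfb2*, *Pfkfb4*, *Aldoc*, *Eno2*, *Pklr* and *Pgm2* had none. Between the Pre and Mid 2 rose and 6 fell (15.4% and 14.8% of all promoters), and from the Mid to Post 3 rose and 4 fell (17.5% and 17.5%). From the HiT to Mid 13 rose and 5 fell (19.2% and 21.8% of all), and from the Fed to Mid 3 rose and 11 fell (16.6% and 18.6%). Without Fed 1 the Fed to Mid had 5 calls in place of 14, and without Pre 2 the Pre to Mid had 4 in place of 8. Here too the calls over all promoters are not given. From the Pre to HiT 6 rose and 15 fell (18.5% and 14.9% of all), and from the Pre to Post 1 rose and 1 fell (1.05% and 0.798%). None passed from the Mid to Dep (1.16% and 0.872% of all), where 5 had an unadjusted p under 0.05 and DESeq2 called 1. *Slc2a1*, the transporter of basal glucose uptake (GLUT1), rose from 15.8 ± 1.79 (SD, n = 4) in the Pre to 33.6 ± 10.4 (SD, n = 8) in the Mid (1.09 ± 0.20 on the log2 scale, FDR = 0.000165), fell to 14.4 ± 3.16 (SD, n = 4) in the Post (-1.23 ± 0.20, FDR = 3.39e-05) and stood at 11.7 ± 2.16 in the Fed, 23.7 ± 3.29 in the HiT and 46.1 ± 3.94 in the Dep (SD, n = 4 each). From the Fed to Mid it rose by 1.51 ± 0.20 (FDR = 3.63e-06). Between the Mid and Dep the smallest FDRs were those of *Gbe1* (-0.30 ± 0.09, FDR = 0.086), *Pgam1* (0.31 ± 0.10, FDR = 0.110), *Slc2a1* (0.45 ± 0.18, FDR = 0.174) and *Ugp2* (0.23 ± 0.10, FDR = 0.214). *Ugp2*, which makes UDP-glucose for glycogen, rose by 0.67 ± 0.10 from the Pre to Mid (FDR = 2.47e-05), by 0.62 ± 0.10 from the HiT and by 0.71 ± 0.10 from the Fed, and fell by 0.53 on the log2 scale from the Mid to Post. *Eno1*, the ubiquitous enolase, fell by 0.62 from the Pre to Mid (FDR = 0.000412) and by 0.96 from the HiT to Mid (FDR = 6.06e-07), and rose by 0.63 ± 0.12 from the Mid to Post. *Gpd1*, the cytosolic glycerol phosphate dehydrogenase, fell by 0.96 ± 0.23 from the Pre to Mid (FDR = 0.0022).

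*Gbe1*, the glycogen branching enzyme, rose by 0.58 ± 0.09 from the Mid to Post (FDR = 1.6e-05) and by 0.61 ± 0.09 from the HiT to Mid, and fell by 0.79 ± 0.11 from the Pre to HiT. Glycogenin (*Gyg*) rose by 0.51 ± 0.08 from the HiT to Mid and fell by 0.57 from the Pre to HiT. In the same comparison *Tbc1d4*, which holds GLUT4 vesicles back until insulin acts, rose from 28.2 ± 3.94 to 48.6 ± 5.67 (SD, n = 4 each, 0.78 ± 0.16, FDR = 0.000499), and *Pgam1* rose by 0.57 ± 0.12. *Bpgm* and *Gpd2* fell by 0.37 and 0.95 from the Fed to Mid, and *Phkg1*, the catalytic subunit of phosphorylase kinase, fell by 0.81 ± 0.21 from the Pre to Post (FDR = 0.0359), where *Gbe1* rose by 0.41 (FDR = 0.0394). The count of 2 became 0 without Pre 1, Pre 2, Pre 3 or Post 1 and also without TMM, and 1 without Pre 4, Post 2, Post 3 or Post 4. Of the enzymes that complete the chain of the members, *Gpi1* rose by 0.43 ± 0.07 from the HiT to Mid (FDR = 3.56e-05) and fell by 0.29 from the Pre to HiT, and the main promoter of *Tpi1* fell by 0.24 from the Pre to Mid (FDR = 0.0426) and by 0.40 from the Pre to HiT (FDR = 0.00315). A weak second promoter of *Tpi1* fell by 0.61 from the Pre to Mid, by 0.82 from the Fed to Mid and by 0.96 from the Pre to HiT. *Pgk1* and *Gapdh* passed in none of the 9 comparisons. *Gapdh* has many processed copies, 1 of them (*Gapdh-ps15*) with a promoter of its own here, and its group means were 50.5 to 62.6 CPM in run 1 and 357 to 399 in run 2, so its values are uncertain.

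When the fast fibre score of each library was added to the fit, the coefficient of the score passed the threshold for 2 members, *Aldoa* P1 (0.45 ± 0.07 on the log2 scale per unit of score, FDR = 0.000269) and *Eno3* P1 (0.48 ± 0.08, FDR = 0.000814), and for 0.993% of all promoters. For *Aldoa* P2 it was -0.01 ± 0.07 (FDR = 0.994), for *Ldhb* -0.04 ± 0.07 (FDR = 0.923) and for *Slc2a4* 0.01 ± 0.06 (FDR = 0.973). It was larger for *Eno3* P2 (0.27 ± 0.07, FDR = 0.0686), *Pkm* (0.29 ± 0.09, FDR = 0.149) and *Ldha* (0.25 ± 0.08, FDR = 0.229). For *Pfkfb3* it was 0.33 ± 0.20 (FDR = 0.810) and for *Pfkm* 0.16 ± 0.07 (FDR = 0.549). *Hk2* had 0.15 ± 0.09 (FDR = 0.796) and *Pgam2* 0.05 ± 0.08 (FDR = 0.915). The weak *Aldoa* P3 and P4 had 0.07 ± 0.14 (FDR = 0.946) and 0.16 ± 0.19 (FDR = 0.884). The difference between the coefficients of *Aldoa* P1 and P2 was not tested.

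**Figure D3:**
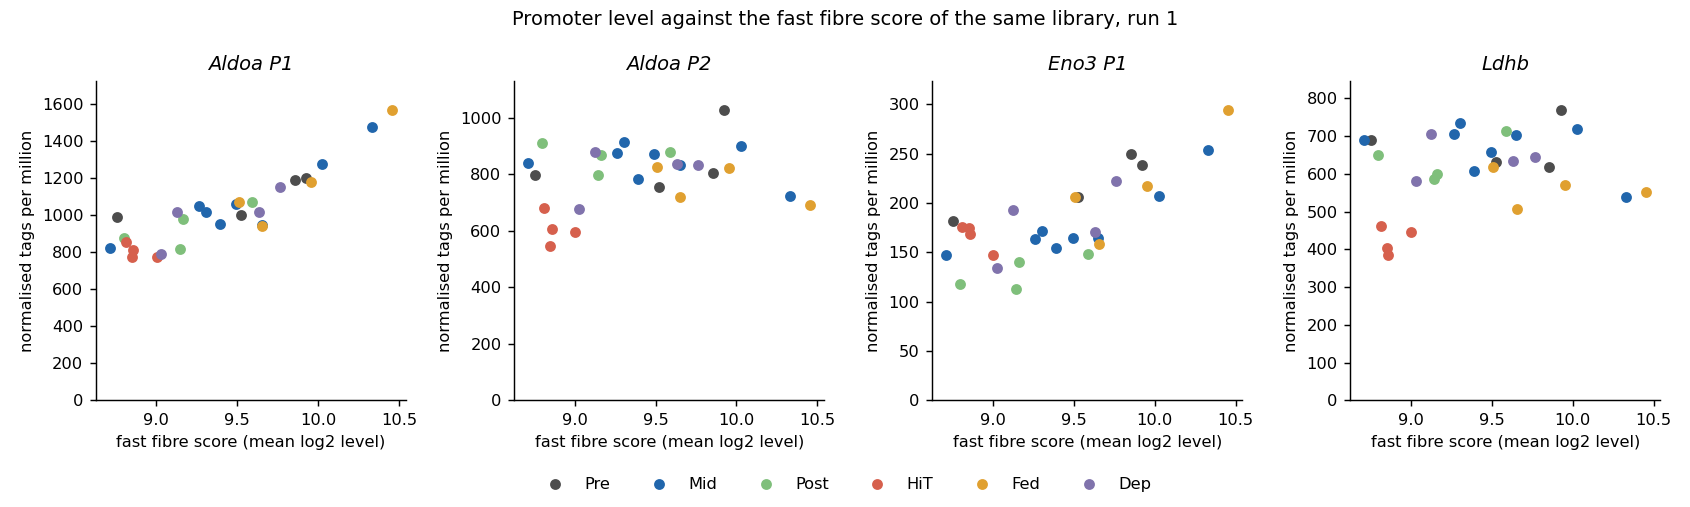
Level of 4 promoters (CPM, axis from 0) against the fast fibre score of the same library (mean log2 level of 13 fast fibre genes) in the 28 libraries of run 1, coloured by group. *Aldoa* P1 and *Eno3* P1 are highest in the library with the highest score, Fed 1 (1566 and 294), where *Aldoa* P2 and *Ldhb* stand at 691 and 553, and the HiT points lie low for both of these.

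With the score in the fit, 5 of the 10 falls from the Pre to HiT passed the threshold, those of *Slc2a4* (-0.72 ± 0.09), *Hk2* (-0.50 ± 0.13), *Pfkfb3* (-1.54 ± 0.33), *Aldoa* P2 (-0.48 ± 0.11) and *Ldhb* (-0.70 ± 0.11). *Aldoa* P1 went from -0.45 to -0.16 (FDR = 0.262), *Pkm* from -0.44 to -0.25 (FDR = 0.159) and *Ldha* from -0.45 to -0.30 (FDR = 0.0731). *Pgam2* (-0.29 to -0.25, FDR = 0.111) and *Aldoa* P3 (-0.51 to -0.47, FDR = 0.0966) also missed the threshold, with a smaller change in size. From the HiT to Mid 5 of the 6 rises passed, again *Slc2a4* (0.48 ± 0.09), *Hk2* (0.88 ± 0.12), *Pfkfb3* (0.95 ± 0.30), *Aldoa* P2 (0.48 ± 0.10) and *Ldhb* (0.68 ± 0.10), and *Aldoa* P1 went from 0.42 to 0.11 (FDR = 0.365). From the Fed to Mid 5 of 8 passed, *Hk2* (0.56 ± 0.11), *Ldhb* (0.23 ± 0.09), *Pkm* (-0.35 ± 0.11), *Ldha* (-0.31 ± 0.10) and *Pgam2* (-0.25 ± 0.10). The other 3 were *Slc2a4*, which kept its size (0.19 to 0.20, FDR = 0.0549), *Pfkfb3* (-0.67 to -0.54, FDR = 0.124) and *Pfkm* (-0.22 to -0.16, FDR = 0.145). Of the 3 calls from the Mid to Post 2 were made with the score too, and that of *Hk2* was lost. All 5 calls from the Pre to Mid were made with the score too, and *Eno3* P1 (-0.31 ± 0.10, FDR = 0.0166) and *Pfkm* (-0.22 ± 0.08, FDR = 0.0379) joined them. Over all promoters the fits with the score called 15.3% higher and 14.8% lower in the Mid than in the Pre, 15.9% and 19.5% against the HiT, and 15.3% and 16.7% against the Fed. In the HiT against the Pre they called 16.2% higher and 11.9% lower. The scores of the HiT libraries spanned only 8.81 to 9.003, against 8.71 to 10.5 over run 1, so that for them group and score cannot be fully told apart.

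**Figure D4:**
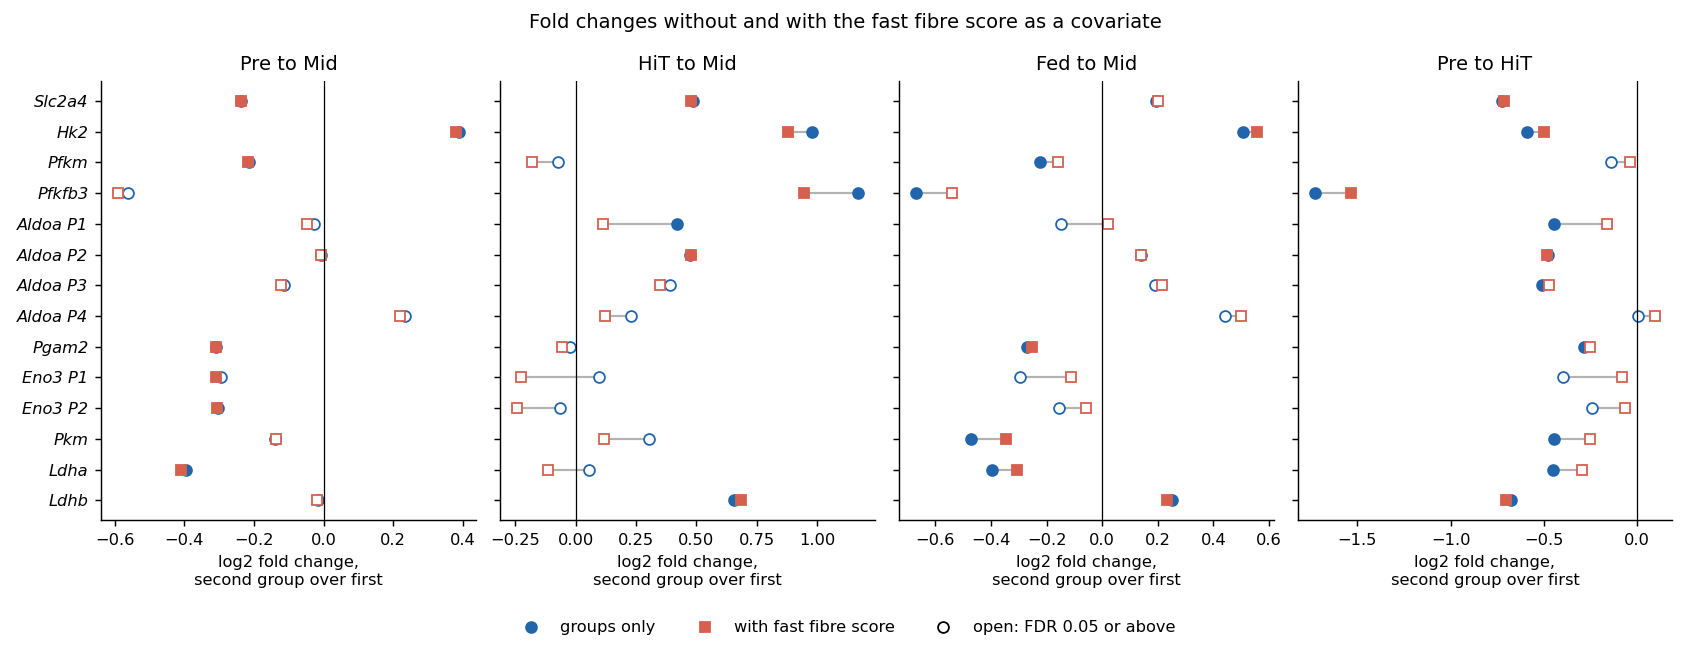
log2 fold change of the 14 promoters in 4 comparisons from the fit with groups alone (blue circles) and with the fast fibre score as a covariate (red squares), filled where the FDR is below 0.05. Lines join the 2 values of a promoter. Between the Pre and HiT *Aldoa* P1 moves from -0.45 to -0.16 and *Eno3* P1 from -0.39 to -0.08, while *Slc2a4*, *Aldoa* P2 and *Ldhb* hardly move.

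Shares that need no scaling between libraries were examined after the levels had been seen, *Aldoa* P1 and *Eno3* P1 as shares of the P1 and P2 of their gene. *Eno3* P1 held 25.6% to 29.05% of the *Eno3* tags in the Pre, 23.5% to 30.7% in the Mid and 19.9% to 21.6% in the Post, with no overlap between the Post and the Mid (mean 20.9% ± 0.683 (SD, n = 4) against 27.2% ± 2.15 (SD, n = 8), p = 0.00202 by a two-sided exact permutation test, which can go no lower here, adjusted p = 0.0545 over 27 tests). In run 2 the share was 60.4% to 64.3% in the Mid and 53.0% to 57.3% in the Post, again without overlap (exact permutation test, p = 0.0179, the smallest possible, adjusted p = 0.121). The share fell by 6.30 percentage points in run 1 and fell by 6.35 in run 2. The Post of run 2 were all sequenced on another lane than most of its Mid, so lane and group can hardly be told apart there. In run 1 the Post and the HiT also lay below the Pre without overlap (exact permutation tests, p = 0.0286 for both, the smallest possible, adjusted p = 0.129). *Ldha* made up 62.4% ± 3.18 (SD, n = 4) of the *Ldha* and *Ldhb* tags in the Fed and 61.7% ± 4.66 (SD, n = 4) in the HiT, against 51.5% ± 5.89 (SD, n = 8) in the Mid, with 1 Mid library at 64.1% (exact permutation tests, p = 0.0101 and 0.0141, adjusted p = 0.121 for both). For *Aldoa* P1, group means lay between 51.9% in the Post and 60.3% in the Fed in run 1, and between 68.6% in the Post and 72.5% in the Mid in run 2. None of the 9 exact permutation tests of this share had p under 0.05.

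**Figure D5:**
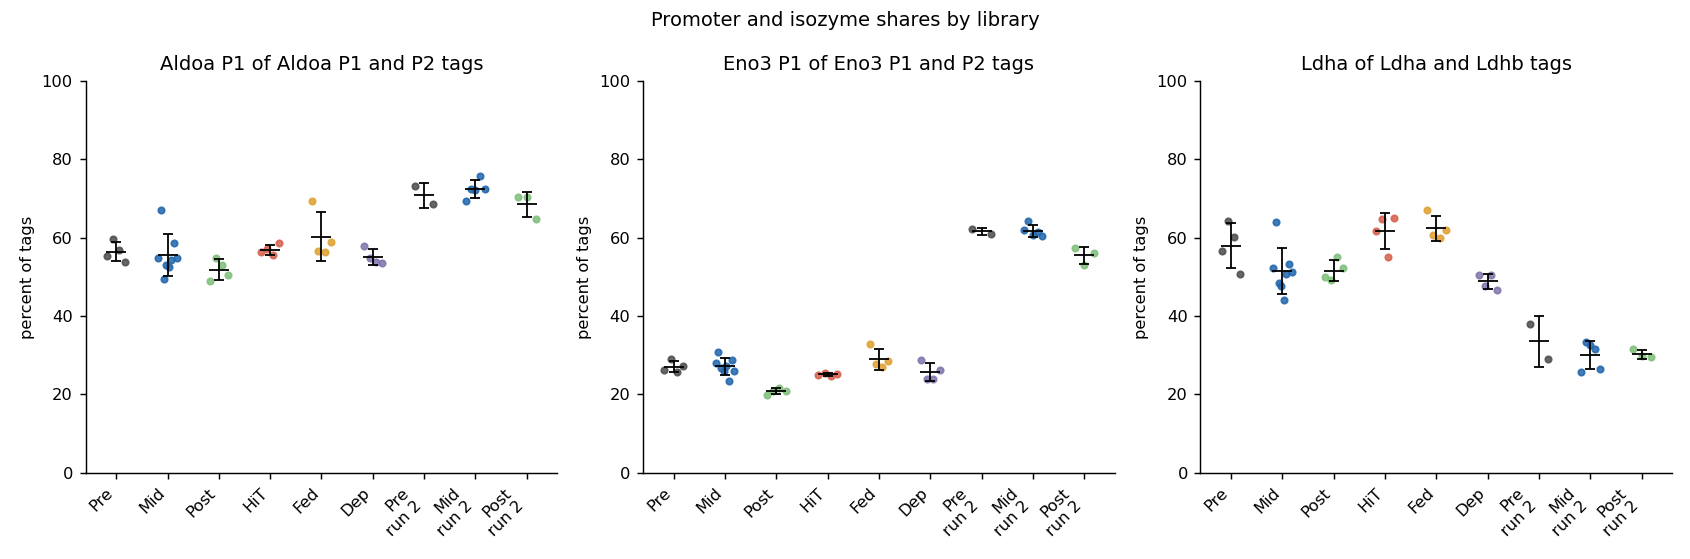
Share of tags by library in the 9 groups, in percent from 0 to 100. Points are libraries, long bars are means and whiskers are 1 SD. *Eno3* P1 lies lower in the Post than in the Mid in both runs, and the 2 runs lie apart, at 19.9% to 32.8% in run 1 and 53.0% to 64.3% in run 2.

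In run 2, 0 members rose and 1 fell from the Pre to Mid (5.30% and 4.44% of all promoters), and 1 rose and 0 fell from the Mid to Post (7.73% and 8.65%). Both calls were *Pfkfb3*, which stood at 10.2 and 13.7 in the Pre, at 5.51 to 7.80 in the 5 Mid libraries and at 25.3, 18.2 and 25.6 in the Post, with no overlap between neighbouring groups. It fell by 45.2% from the Pre to Mid (-0.87 ± 0.18, FDR = 0.0159), a call lost without Pre 6, and rose 3.52-fold from the Mid to Post (1.82 ± 0.15, FDR = 5.14e-05). *Hk2* had 348 and 352 in the Pre against 305 to 468 in the Mid (0.10 ± 0.17, FDR = 0.762). For *Ldha* the values were 753 and 545 against 417 to 541, without overlap (-0.42 ± 0.16, FDR = 0.126), and *Pgam2* had -0.42 ± 0.22 (FDR = 0.262). The difference between the runs was tested over 10819 promoters and called 0.00% of them in either comparison by edgeR. From the Pre to Mid 551 had an unadjusted p under 0.05, no member among them, and from the Mid to Post 682, with *Pfkfb3* the only member (difference 1.07, FDR = 0.767). Of the further pathway, 1 rose and 1 fell from the Pre to Mid in run 2 (*Ugp2* by 0.64 ± 0.11, FDR = 0.00662, and *Tbc1d1*, a relative of *Tbc1d4*, by -0.70 ± 0.18), and 6 rose and 2 fell from the Mid to Post, among them *Gbe1* (0.75 ± 0.10), *Ugp2* (-0.62 ± 0.10), *Tbc1d1* (0.82 ± 0.16) and *Slc2a1* (-1.32 ± 0.31). With lane as a term in the fit, none of these 8 calls was made and the count from the Pre to Mid was 1 in place of 2, while both calls of *Pfkfb3* were made. All the Pre libraries and 4 of the 5 Mid libraries of run 2 were sequenced on lane 3 and all its Post libraries on lane 4, so that lane and group can hardly be told apart, and *Myh4* was at 0.184 to 6.29 in every library of run 2.

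Over the 28 libraries of run 1, which share their groups and their scaling, the member promoters most alike were *Aldoa* P2 and *Ldhb* (Pearson r = 0.92), followed by *Pgam2* and *Ldha* (r = 0.81) and *Aldoa* P1 and *Eno3* P1 (r = 0.80). The lowest correlations were those of *Pfkfb3* and *Aldoa* P4 (r = -0.29) and of *Hk2* and *Pgam2* (r = -0.23). Outside the pathway, *Ldhb* was most like *Gm5514* (r = 0.97), a processed pseudogene, and then *Atp5a1* (0.93) and *Cox5a* (0.91), which encode subunits of ATP synthase and cytochrome oxidase. *Aldoa* P2 was most like *Myoz2* (0.88), of the slow fibre list, *Gm5514* (0.87) and *Tcaim* (0.86). *Aldoa* P1 was most like *Gm2308* (0.90), *Gapdh-ps15* (0.88) and *Gm10284* (0.88), all processed pseudogenes. *Gapdh-ps15*, a copy of the pathway gene *Gapdh*, was counted as outside because only the listed genes themselves were left out. *Hk2* was nearest to *Wfs1* (0.91), *Zfp768* (0.91) and *Pde4dip* (0.90), *Slc2a4* to *Ecsit* (0.88), *Slc25a12* (0.87) and *Gm10039* (0.87), and *Pfkfb3* to *Ankrd39* (0.85), *Rps6ka5* (0.84) and *Acaca* (0.82), the acetyl-CoA carboxylase of fat synthesis. *Eno3* P1 was nearest to *Myoz1* (0.84), a fast fibre gene, *Mrln* (0.79) and *Gm12319* (0.79). The peak of *Gm12319*, at 70656497, stood close to that of *Eno3* P1 at 70657202. *Eno3* P2 was nearest to *Myoz1* (0.80), *Myl1* (0.77) and *Casq1* (0.73), which are in the fast fibre list too. *Ldha* was nearest to *Gm12319* (0.90), a lincRNA, *Smco1* (0.83) and *Reep1* (0.83), and *Pkm* to *Syne1* (0.87), *Mlxipl* (0.86), which encodes the glucose-sensing factor ChREBP, and *Vti1a* (0.84). *Pgam2* was nearest to *Vamp1* (0.77), *Plpp7* (0.75) and *Smco1* (0.74), and *Pfkm* to *Rdm1* (0.74), *Ppm1j* (0.74) and *Hhatl* (0.72). The weak *Aldoa* P3 and P4 were both nearest to promoters of *Atp2a1* (0.68 and 0.91), the calcium pump of fast fibres, followed by *Ndufs6b* (0.66) and *Gm12671* (0.65) for P3 and *Atp5b* (0.87) and *Tnni2* (0.86) for P4. *Aldoa*, *Ldha* and *Ldhb* have processed copies in the genome, and how tags that match several places were divided among them could move a part of these values.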

How the data were processed

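nAnT-iCAGE libraries of 38 soleus muscles were compared. Reads were trimmed by the authors and aligned to the mm10 build (BWA and HISAT2, per the submitters' processing notes), and read 5′ ends were grouped into clusters with PromoterPipeline. The deposited counts are raw tag counts per cluster, with multi-mapping tags rescued, and the deposited TPM values are tags scaled by the total tag count of the library. Versions were not given in the sources used here.

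The members, the gene lists and the tests were chosen with earlier results of these data known. Clusters (called promoters) were assigned with GENCODE M21. The counts were tested with edgeR 4.0.16 in R 4.3.3 (TMM, quasi-likelihood F test), with group as the only term, the 28 libraries of run 1 in 1 fit of 10776 promoters and the 10 of run 2 in another of 10816, all with any tag. FDRs are Benjamini-Hochberg values over all promoters, with a threshold of 0.05. SEs are the absolute log2 fold change over the square root of F, and levels are CPM after TMM. Scores and correlations used log2(level + 0.1). Only the edgeR test of the Mid against the Pre in run 1 was tried on simulated counts, and the other methods were not.

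Named were every member promoter, the 4 further pathway promoters of smallest FDR per comparison, *Gapdh*, *Tpi1*, *Pgk1* and *Gpi1*, and the 3 most correlated promoters per member. DESeq2 1.42.0, other scalings and filters, covariates and leaving out each library were tried. The fits with the *Myh4* level or an adipocyte score as covariate, and the shares, were added after seeing the data. No 2 libraries of a group were duplicates (lowest chi-square per promoter 12.4 over 72 pairs).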

Additional observations from a re-analysis of the deposited data

Results flagged for a closer look

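In 3 of 98 sets of a promoter in a group of 4 to 8 libraries, 1 library lay far from the rest by Dixon's test, which chance does in about 1 of 20. *Pkm* in Mid 2 was at 464 CPM against 355 to 389 in the other Mid libraries. *Eno3* P2 in Dep 3 was at 424 against 539.8 to 547 in the other Dep libraries. *Aldoa* P4 in Fed 1 was at 15.98 against 11.4 to 11.7 in the other Fed libraries.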

How the results depend on the processing

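No called result changed direction under any alternative. The filter on low counts changed no call of a member, and adding an adipocyte score (chosen after seeing the data) ended 4 of 126 and made 3. Counts of member promoters called, with DESeq2, were 2 from the Pre to Post and 2 from the Mid to Post in run 2, and those of the further pathway 1 from the Mid to Dep and 5 from the Pre to Mid in run 2. The likelihood ratio test gave 2, 2 and, for the further pathway from the Pre to Mid in run 2, 4. Over all promoters DESeq2 called 175 higher and 135 lower from the Pre to Post, and 245 and 234 from the Mid to Dep. In run 2 it called 785 and 596 (Pre to Mid) and 942 and 1081 (Mid to Post). The likelihood ratio test called 137 and 109 from the Pre to Post. In run 2 that test called 661 and 543 (Pre to Mid) and 815 and 994 (Mid to Post). Without TMM the member counts were 1 from the Pre to Mid, 0 from the Mid to Post, 3 from the Fed to Mid and 0 from the Pre to Post, and the further pathway had 0 from the Pre to Post. The median of all promoters then shifted by -0.12 from the Fed to Mid and by -0.17 from the Pre to HiT, and the calls over all promoters went from 1788 higher and 2009 lower to 509 and 1672 in the Fed to Mid, from 1997 and 1607 to 584 and 1390 in the Pre to HiT, from 1659 and 1594 to 534 and 924 in the Pre to Mid, from 2070 and 2352 to 1313 and 1010 in the HiT to Mid, and from 836 and 936 to 1105 and 671 in the Mid to Post of run 2. Without TMM the Mid to Post had 808 and 822, and the Pre to Post 10 and 11. Upper-quartile scaling gave 1282 and 2308 in the Pre to Mid, 2535 and 1471 in the Mid to Post, 1395 and 2409 in the Fed to Mid, and 1508 and 2139 in the Pre to HiT. With the compared groups alone the members had 3 from the Fed to Mid, 2 from the Pre to Post and 2 from the Mid to Post in run 2, and the further pathway 1 from the Pre to Post. Over all promoters these fits called 1207 higher and 1631 lower from the Fed to Mid, and 185 and 90 from the Pre to Post. From the Mid to Post in run 2 the numbers were 758 and 853. The fast fibre score gave 5 from the Fed to Mid, 5 from the Pre to HiT and 2 from the Mid to Post in run 2, and 1 for the further pathway from the Pre to Post. Over all promoters these fits called 1645 higher and 1803 lower from the Fed to Mid, and 1751 and 1285 from the Pre to HiT. From the Pre to Post they called 116 and 83, and from the Mid to Post in run 2 785 and 869. The *Myh4* level (chosen after seeing the data) gave 1 from the Mid to Post, 5 from the Fed to Mid, 5 from the Pre to HiT, 0 from the Pre to Mid in run 2 and 2 from the Mid to Post in run 2, and 13 and 1 for the further pathway from the Pre to HiT and Pre to Post. *Myh4* alone in place of the fast fibre score differed by 5.02 from the HiT to Mid. With all 38 libraries and run as a term, the Pre to Post had 3 members and 5 of the further pathway. Over all 10819 promoters that fit called 427 higher and 304 lower in the Post. In run 1 alone the numbers were 113 and 86 of 10776. In run 2 a lane term left, of the further pathway, 1 between the Pre and Mid and 0 between the Mid and Post.

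Deviations from the group mean in same-numbered libraries of different groups had correlations of -0.51 to 0.46 (median -0.05) over 60 pairs. Of these, 18 were above 0.1. Pairs with different numbers were not computed for reference, so whether same-numbered libraries shared more than a number cannot be told. A term for the library number (replicate block) in run 1 ended 14 member calls and made 0. With the replicate block the members had 3 from the Pre to Mid, 0 from the Mid to Post, 3 from the Fed to Mid and 0 from the Pre to Post, and the further pathway 7 from the Fed to Mid, 3 from the Mid to Dep and 0 from the Pre to Post. Over all promoters that fit called 1605 higher and 1542 lower from the Pre to Mid. For the Mid to Post it called 1808 and 1901, and for the Fed to Mid 1345 and 1496. For the Mid to Dep it called 218 and 189, and for the Pre to Post 117 and 84. The block could not be fitted in run 2, whose groups share too few numbers.

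Leaving out each library in turn, member counts ranged from 2 to 7 (Pre to Mid), 0 to 3 (Mid to Post), 6 to 8 (HiT to Mid), 1 to 8 (Fed to Mid), 0 to 0 (Mid to Dep), 7 to 9 (Pre to HiT), 0 to 1 (Pre to Post), and in run 2 from 0 to 1 and 1 to 2. Those of the further pathway ranged from 4 to 10, 6 to 8, 14 to 19, 5 to 15, 0 to 0, 15 to 19 and 0 to 1, and in run 2 from 1 to 3 and 4 to 8. The low counts were 2 without Pre 2 (Pre to Mid), 1 without Post 1 or Post 3 and 0 without Post 4 (Mid to Post), and 1 without Fed 1, 4 without Mid 8 and 5 without Mid 4 or Mid 7 (Fed to Mid). Counts over all promoters are not given for the fits without a library, so these ranges cannot be set against them. Run 2 is shallower and has 2 Pre libraries.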
